A study of Mus musculus with 6 samples.

Results

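The genes described here are 10 members of the feedback arm of the ERK pathway: the MAP kinase phosphatases Dusp4 and Dusp6, the Sprouty genes Spry1, Spry2 and Spry4, the Sprouty-related genes Spred1 and Spred2, the transmembrane inhibitor Il17rd (also called Sef), and the ETS transcription factors Etv4 and Etv5. They were chosen by symbol out of 23353 genes listed in the deposited table. All 10 were in the table and all 10 passed the filter on low values, which 13136 genes passed. RNA-seq was performed on day 4 embryoid bodies (EBs), floating aggregates in which mouse embryonic stem cells (mESCs) differentiate. Wildtype EBs came from the parental W9.5 mESCs, and EVX1-Δfs EBs came from clone 14, derived from W9.5 by CRISPR-Cas9 editing and carrying small frameshift deletions in the homeodomain-encoding part of both Evx1 alleles. Both lines were grown for 4 days with serum after LIF was withdrawn, with 3 libraries per genotype. The EVX1-Δfs group is 1 clone, so a difference between the groups is a difference between that clone and its parental line. Evx1 itself had 2358, 2176 and 2400.0 normalised counts in wildtype and 2354, 2516 and 2012 in EVX1-Δfs replicates 1, 2 and 3, and frameshift deletions need not remove a transcript, so its level does not check the labels.

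Fibroblast growth factors bind receptor tyrosine kinases, which load RAS with GTP and so start a chain of kinases, RAF, MEK and ERK. Active ERK switches on ETS factors of the ETV group and also the genes of its own inhibitors. Sprouty and SPRED proteins act on RAS and RAF, Il17rd holds back active MEK and ERK, and DUSP phosphatases remove the activating phosphates from ERK itself. Transcripts of these genes are therefore widely used as a readout of FGF signalling, which is needed in the primitive streak for mesoderm cells to form and migrate.

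The DNA upstream of a gene's start is where ETS factors can act, and the letters CGGAAG contain the core that the family recognises. RefSeq promoter windows on GRCm38.p6 were searched for 7 of the 10 genes. These were 8 windows of 300 bases, from 250 bases before to 50 bases after the start. Dusp4, Etv4 and Spry4 were not searched, so nothing is said of their promoters. CGGAAG or, on the other strand, CTTCCG was found in windows of 3 of the 7 genes searched, Dusp6, Spred1 and Spred2. Counted by window this was 3 of the 8, beside 16.85% of all 32851 promoter windows. The windows that hold the letters are printed, with the letters in capitals, and those of Etv5, Il17rd, Spry1 and Spry2, which do not hold them, are not. The letters were chosen after longer and shorter versions and motifs of other factors had been tried, so their presence is a description and not a binding site. Dusp6 (chr10:99262981-99263280, plus strand) held them 62 bases before the start. Spred1 (chr2:117120821-117121120, plus strand) held them at position -17 and again at position 8, counted from the start. Spred2 (chr11:19924192-19924491, plus strand) held them 43 bases before the start.
Dusp6: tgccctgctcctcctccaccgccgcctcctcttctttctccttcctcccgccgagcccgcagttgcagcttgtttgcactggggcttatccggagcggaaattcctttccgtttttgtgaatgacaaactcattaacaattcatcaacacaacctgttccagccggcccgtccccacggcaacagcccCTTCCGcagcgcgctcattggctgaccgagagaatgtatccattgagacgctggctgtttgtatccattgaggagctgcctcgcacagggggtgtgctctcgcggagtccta
Spred1: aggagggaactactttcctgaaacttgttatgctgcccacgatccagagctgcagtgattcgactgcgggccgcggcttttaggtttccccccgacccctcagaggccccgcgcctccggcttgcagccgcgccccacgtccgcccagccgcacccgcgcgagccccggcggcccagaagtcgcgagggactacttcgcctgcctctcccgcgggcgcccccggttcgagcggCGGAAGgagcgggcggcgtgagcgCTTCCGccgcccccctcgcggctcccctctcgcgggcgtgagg
Spred2: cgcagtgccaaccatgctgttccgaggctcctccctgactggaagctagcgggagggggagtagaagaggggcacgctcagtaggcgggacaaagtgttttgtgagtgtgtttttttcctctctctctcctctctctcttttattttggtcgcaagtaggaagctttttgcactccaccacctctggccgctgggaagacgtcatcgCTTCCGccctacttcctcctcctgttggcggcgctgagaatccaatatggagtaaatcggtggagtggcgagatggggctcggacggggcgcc

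One gene of the 10 differed between the genotypes by the test used. Dusp4, a nuclear phosphatase of ERK, fell to 53.6% of its wildtype level in EVX1-Δfs EBs, and the other 9 genes were not called. The test was limma on log2(normalised count + 1), with Benjamini-Hochberg adjustment over all 13136 genes, and genes with an adjusted p under 0.05 were called. By that rule 1 of the 10 genes was lower, beside 2.95% of all genes tested, and 0 were higher, beside 2.08% (either direction, 5.02%). At an unadjusted p under 0.05, 0 of the 10 were higher in limma, and DESeq2 and edgeR also called 0 higher. The share of all genes at an unadjusted p was not computed, so counts at that cutoff have no background here or below. The median log2 fold change was -0.07 over the 10 genes and 0.00 over all genes tested. The choice of scaling moved the split of all calls: 41.4% of them were higher in the main result and 53.2% with upper-quartile scaling, while Dusp4 was called with either.

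Dusp4 maps to chr8:35870351-35882948 (plus strand; NCBIM37, the assembly of mm9, as for all gene positions here). It had 3166, 3004 and 2951 normalised counts in wildtype replicates 1, 2 and 3, and 1498, 1695 and 1704 in the EVX1-Δfs libraries with the same numbers. All 3 EVX1-Δfs libraries were below all 3 wildtype libraries, as for 14.7% of all genes tested, and the gap between the groups was far wider than the spread within either. Group means were 3040 ± 112 for wildtype and 1632 ± 117 for EVX1-Δfs (SD, n = 3). Dusp4 thus changed by -0.90 ± 0.11 (SE) on the log2 scale, with a 95% interval from -1.12 to -0.67 (limma adjusted p = 4.94e-05). The submitters describe replicates as set up side by side on separate days, so same-numbered libraries were taken as pairs. Within these pairs the log2 difference was -1.08, -0.83 and -0.79. By limma's p Dusp4 stood sixth among all genes tested. In 17 alternative settings its log2 fold change stayed between -0.93 and -0.75 and its adjusted p between 1.46e-14 and 0.00569.

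Values that moved with Dusp4 are given here. Of all genes tested, 2.95% were called lower and 2.08% higher in limma. In bulk samples, fewer cells of a type and less RNA per cell cannot be told apart. The marker lists were chosen with earlier results of these data known, so their counts are a description. The study had already listed Mixl1, Mesp1, Eomes, Tbx6, Snai1 and Kdr as lower, and Sox17, Cer1, Foxa2 and Nanog as higher. All 6 markers of the primitive streak and nascent mesoderm (T, Mixl1, Mesp1, Eomes, Tbx6 and Snai1) were called lower (4 with the replicate number as a block), and their summed level was 10445 to 13039 normalised counts in wildtype and 6571 to 8139 in EVX1-Δfs libraries. Of 8 haematoendothelial markers, 7 were tested, 3 were lower (2 with GC and length trends removed) and 4 were not called. Their sums were 3054 to 4029 in wildtype and 1799 to 2041 in EVX1-Δfs libraries, Kdr being the largest term in them. Kdr alone had 1669 to 2415 normalised counts in wildtype and 976 to 1118 in EVX1-Δfs libraries. Flt1, like Kdr a receptor for VEGF but not in this list, was called higher (log2 change 0.75, limma adjusted p = 0.00413). Of 5 markers of anterior and definitive endoderm, 3 were higher (1 with the replicate number as a block). Another 1 was lower at an unadjusted limma p under 0.05 but was not called. Sums of the 5 ran from 415 to 602 in wildtype and from 632 to 969 in EVX1-Δfs libraries. Of 8 pluripotency and epiblast markers, 0 were called in limma, with 5 higher at an unadjusted p under 0.05 (no share of all genes computed). DESeq2 and edgeR both called 4 of them higher (Nanog, Sox2, Zfp42 and Esrrb, with log2 changes of 0.40, 0.41, 0.45 and 0.44 in limma), and limma called 2 (Sox2 and Esrrb) with GC and length trends removed. The sums overlapped (13385 to 20055 and 15243 to 18431), Pou5f1 and Tdgf1 being the largest terms in them. The 6 visceral endoderm markers summed to at most 47.6 and the 5 neurectoderm markers to at most 37.2 in any library, with 1 gene of each list tested, and no marker of any list was at 0 in every library. Fold changes across all genes fell with GC content (Spearman's rho of -0.460 across 12940 genes, a description), and the exons of Dusp4 are 56.0% G or C. With GC and length trends removed from each library, Dusp4 changed by -0.75 on the log2 scale (limma adjusted p = 2.12e-04). The part of the cell types in the Dusp4 difference was not tested.

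**Figure D1:**
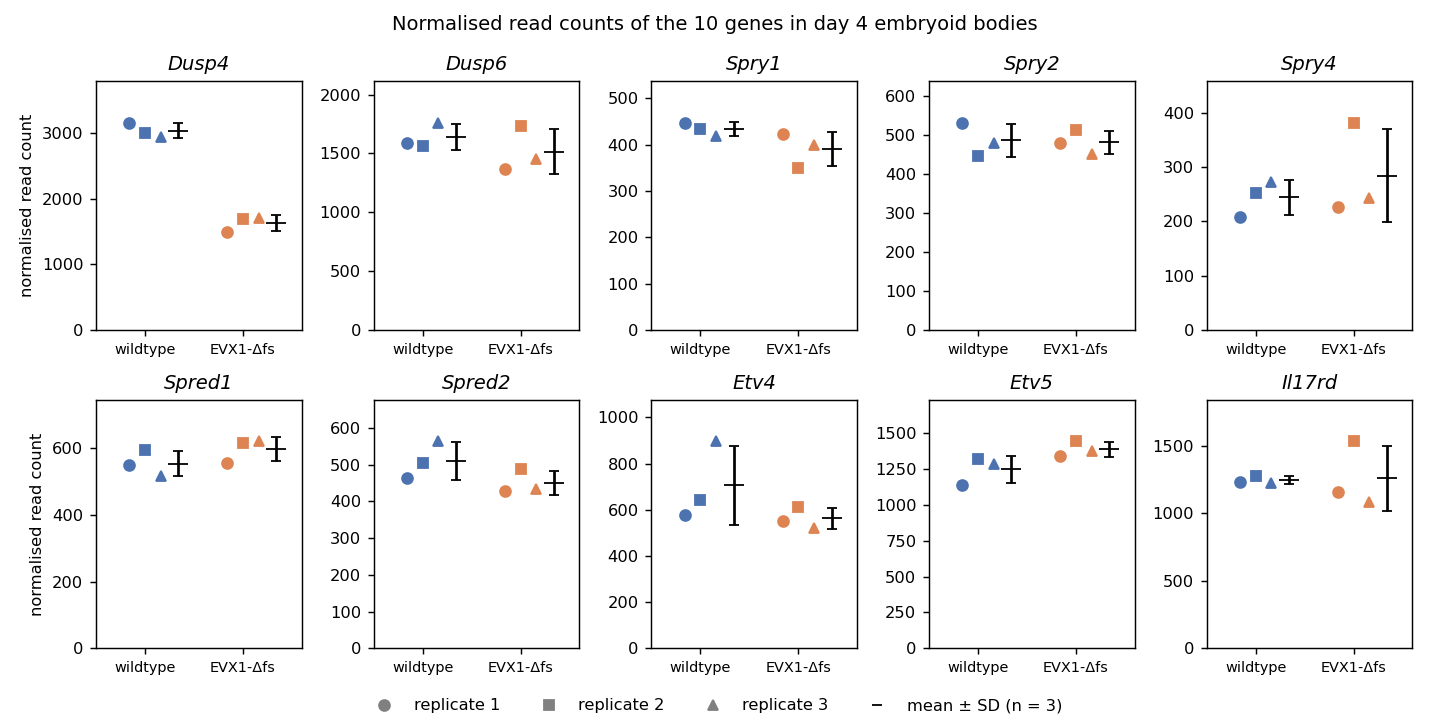
Normalised read count (vertical axis, from 0) of each of the 10 genes in the 3 wildtype and 3 EVX1-Δfs libraries. Marker shapes are the replicate numbers, and the black bar is the mean with its SD. Dusp4 falls from about 3040 to 1632 with no overlap, and EVX1-Δfs replicate 2 (square) is the highest of its group in 7 of the 10 panels.

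Dusp6 (chr10:98725865-98730122, plus strand), the cytoplasmic phosphatase most selective for ERK, was not called. It had 1588, 1565 and 1762 normalised counts in wildtype and 1364, 1735 and 1448 in EVX1-Δfs replicates 1, 2 and 3, so the groups overlapped. Its log2 fold change was -0.12, with a 95% interval from -0.36 to 0.12 and a limma adjusted p of 0.574. The ratio of Dusp4 to Dusp6 counts was 1.99, 1.92 and 1.67 in the wildtype libraries and 1.10, 0.977 and 1.18 in the EVX1-Δfs libraries. Dusp4 transcripts thus gave about as many reads as Dusp6 in EVX1-Δfs EBs, where they had been clearly in excess in wildtype EBs. The mean log2 ratio differed by -0.78 between the genotypes, and the exact two-sided permutation p was 0.1, the smallest that 3 against 3 libraries can give. Ratios were computed, after the counts had been seen, for 6 pairs of genes within a family, and the adjusted p of this one was 0.2 in the exact permutation test. How often ratios of other gene pairs lack overlap was not computed, so the ratios here and below are a description.

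Of the Sprouty genes, intracellular inhibitors of receptor tyrosine kinase signalling, none was called. Spry1 (chr3:37538869-37543520, plus strand) had 448, 434 and 419 normalised counts in wildtype and 423, 350 and 399 in EVX1-Δfs libraries. The lower of these groups touched the other, since EVX1-Δfs replicate 1 was above wildtype replicate 3. Its log2 fold change was -0.15 (95% interval -0.41 to 0.10, limma adjusted p of 0.483). Spry2 (chr14:106291166-106296036, minus strand) had 533, 448 and 480 normalised counts in wildtype and 480, 513 and 452 in EVX1-Δfs libraries, and the groups covered much the same range. Its log2 fold change was -0.01 (95% interval -0.27 to 0.24, limma adjusted p of 0.961). Spry4 (chr18:38745922-38760922, minus strand) was the least even of the 10 genes. It had 209, 252 and 273 normalised counts in wildtype and 227, 382 and 244 in EVX1-Δfs libraries, with replicate 2 well above the others. The log2 fold change of Spry4 was 0.19 (95% interval -0.17 to 0.54, limma adjusted p of 0.546). It became -0.05 when EVX1-Δfs replicate 2 was left out. Ratios between the Sprouty genes overlapped between the genotypes in all 3 pairs, with exact permutation p-values of 0.5 to 0.6, adjusted to 0.6.

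Spred1 and Spred2 encode membrane-bound relatives of Sprouty that restrain the activation of RAF. Spred1 (chr2:116947110-117008015, plus strand) had 549, 593 and 516 normalised counts in wildtype and 554, 615 and 620 in EVX1-Δfs libraries. Spred2 (chr11:19824378-19924029, plus strand) had 463, 504 and 565 in wildtype and 429, 487 and 433 in EVX1-Δfs libraries. For both genes the groups overlapped, and the log2 fold changes of 0.11 (95% interval -0.14 to 0.35) and -0.18 (95% interval -0.44 to 0.08) had limma adjusted p of 0.618 and 0.399. Their directions were opposite in all 3 replicate pairs, Spred1 higher and Spred2 lower. The ratio of Spred1 to Spred2 was 1.19, 1.18 and 0.915 in wildtype and 1.29, 1.26 and 1.43 in EVX1-Δfs libraries, without overlap, at an exact permutation p of 0.1 and an adjusted p of 0.2. The exons of Spred1 are 40.6% G or C and those of Spred2 50.9%, and with GC and length trends removed the log2 fold changes were -0.15 and -0.14, so the opposite directions were not kept.

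Etv4 and Etv5 are sister ETS factors that carry the FGF and ERK signal to target genes. Etv4 (chr11:101631056-101646685, minus strand) had 576, 642 and 898 normalised counts in wildtype and 553, 614 and 523 in EVX1-Δfs libraries. Wildtype replicate 3 stood apart above the rest, and the other 5 libraries lay close together. The log2 fold change of Etv4 was -0.30 ± 0.14 (SE), with a 95% interval from -0.59 to -0.01, an unadjusted limma p of 0.0444 and an adjusted p of 0.203. It was -0.11 when wildtype replicate 3 was left out, and -0.10 with GC and length trends removed (limma adjusted p of 0.740), the exons being 60.3% G or C. Etv5 (chr16:22381382-22439792, minus strand) had 1139, 1314 and 1280 normalised counts in wildtype and 1339, 1442 and 1374 in EVX1-Δfs libraries. All 3 EVX1-Δfs libraries were above all 3 wildtype libraries, by a narrow margin, as for 12.2% of all genes tested (either direction, 26.9%). The log2 fold change of Etv5 was 0.16 (95% interval -0.07 to 0.38, limma adjusted p of 0.408). The Etv4 to Etv5 ratio was 0.505, 0.489 and 0.701 in wildtype and 0.413, 0.425 and 0.381 in EVX1-Δfs libraries, again without overlap. The mean log2 ratio differed by -0.46, with an exact permutation p of 0.1 and an adjusted p of 0.2.

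Il17rd (chr14:27852187-27920472, plus strand), which encodes the inhibitor Sef, was the gene with the smallest difference. It had 1233, 1277 and 1223 normalised counts in wildtype and 1159, 1535 and 1082 in EVX1-Δfs libraries. The wildtype libraries were nearly equal (coefficient of variation 2.31%), while the EVX1-Δfs libraries spread to both sides of them (19.3%). Its log2 fold change was 0.00 (95% interval -0.26 to 0.26, limma adjusted p of 0.999).

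**Figure D2:**
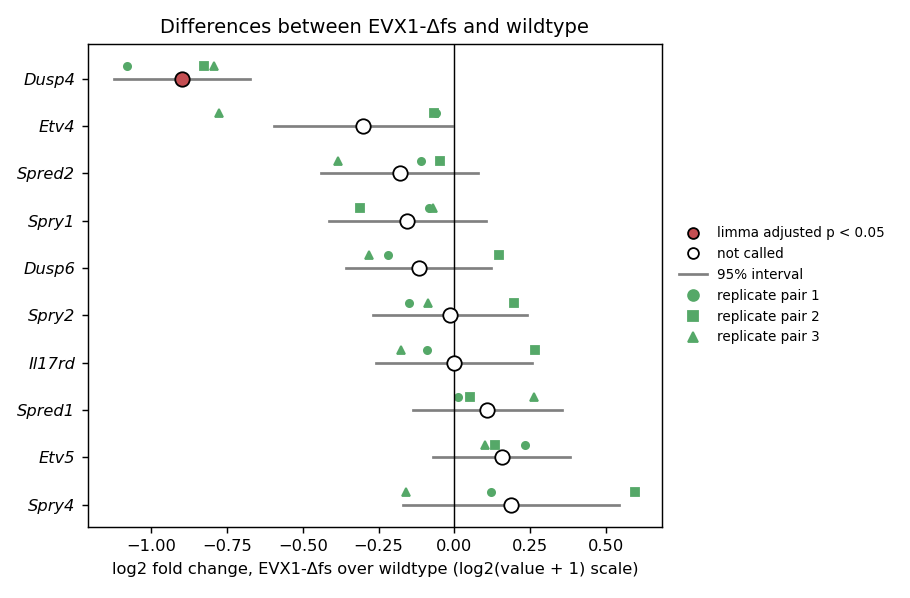
Log2 fold change of EVX1-Δfs over wildtype (horizontal axis, log2(value + 1) scale) for the 10 genes, with the 95% interval of each as a grey line and the 3 same-numbered pairs as green marks. Dusp4 at -0.90 is the gene called, and 8 of the 10 intervals include 0.

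For the 9 genes that were not called, the intervals give the size of difference these libraries could not resolve. The widest bounds were a fall of 33.8% (Etv4) and a rise of 45.7% (Spry4), each for 1 gene with no adjustment for the number of genes. Each of the 10 genes had at least 218 recovered reads in every library, and at most 3395. The direction of Spry1, Spry2, Spry4, Spred1 and Il17rd changed under at least 1 alternative setting. EVX1-Δfs replicate 2 was the highest library of its group for 7 of the 10 genes (Dusp6, Spry2, Spry4, Spred2, Etv4, Etv5 and Il17rd), beside 37.0% of all genes tested. It also had the fewest reads, 7597879 of a range up to 9914471, and whether the depth had a part in this was not tested.

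Levels of different genes were compared per kilobase of annotated exon. In wildtype EBs Dusp4 had the highest level of the 10 genes, 1110 ± 40.8 normalised reads per kb (SD, n = 3), above 96.8% of the genes tested. Dusp6 followed at 586 ± 38.5 and Etv5 at 303 ± 22.6 reads per kb. Spry2 (233 ± 20.6) and Etv4 (227 ± 54.7) did not differ beyond their spread. Below them came Spry1, Il17rd, Spred2, Spred1 and, last, Spry4 at 53.3 ± 7.12 reads per kb, each without overlap with its neighbour in wildtype libraries. In EVX1-Δfs EBs Dusp4 (596 ± 42.6) and Dusp6 (542 ± 69.4 reads per kb) overlapped. Il17rd and Spry1 exchanged places there with overlapping ranges, the ranges of Spred1 and Spry4 also overlapped, and the rest of the order was as in wildtype.

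**Figure D3:**
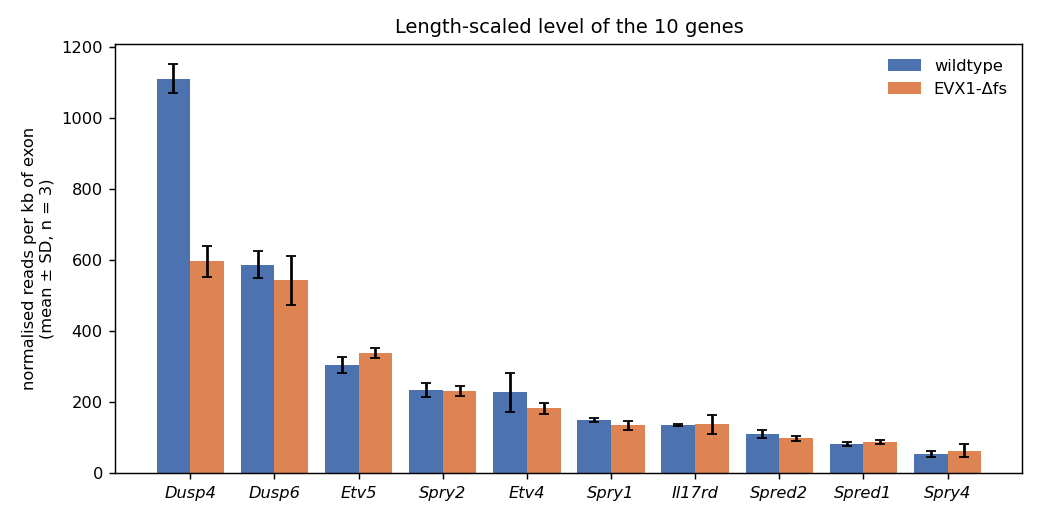
Level of the 10 genes as normalised reads per kb of exon (vertical axis, from 0) in wildtype and EVX1-Δfs EBs, bars being means and whiskers the SD of 3 libraries. Dusp4 stands at 1110 in wildtype and at 596 in EVX1-Δfs EBs, beside Dusp6 at 586 and 542.

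**Figure D4:**
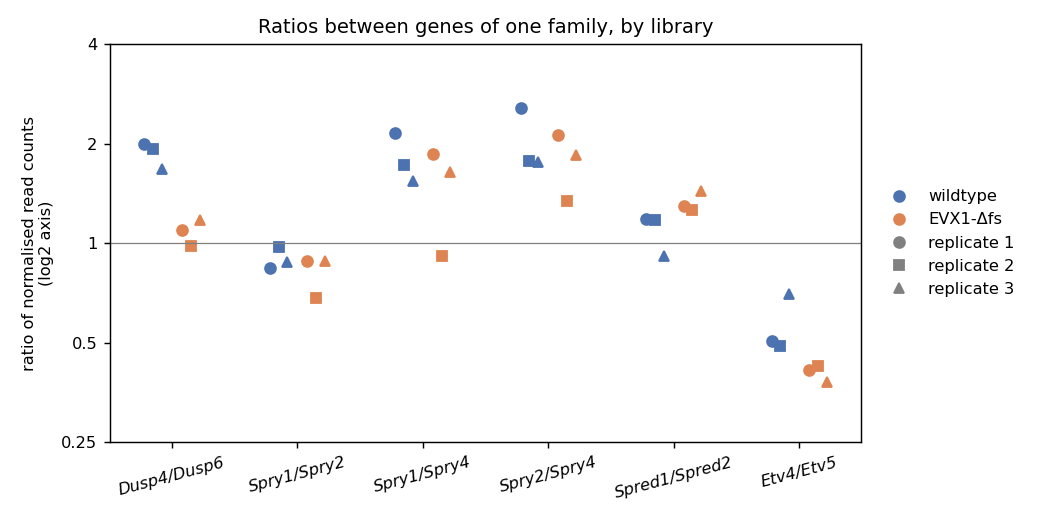
Ratio of normalised read counts between 2 genes of the same family in each library (vertical log2 axis) for the 6 pairs. The groups do not overlap for Dusp4/Dusp6, Spred1/Spred2 and Etv4/Etv5 (adjusted p of 0.2 each in the exact permutation test), and overlap for the 3 Sprouty pairs. The share of all gene pairs without overlap was not computed.

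Other inhibitors of the cascade were taken from a list of 15 genes. The counts called in limma for this list and the pathway lists that follow stand beside 2.95% of all genes tested called lower and 2.08% called higher. Those shares are for the adjusted p and are no background for the counts at an unadjusted p. Of the 14 tested, 2 were lower and 0 were higher in limma, with 4 lower and 3 higher at an unadjusted p under 0.05. DESeq2 and edgeR each called 1 higher (Rasa2). The list's median log2 fold change was 0.07. Both genes called lower were MAP kinase phosphatases. Dusp2, an inducible nuclear phosphatase, fell from 367 ± 48.6 to 240.3 ± 19.2 normalised counts (SD, n = 3; log2 change -0.60, limma adjusted p = 0.0163). Dusp9, a cytoplasmic phosphatase related to Dusp6, fell from 1999.7 ± 179 to 1519 ± 29.9 (SD, n = 3; log2 change -0.39, limma adjusted p = 0.0402). These calls were less stable than that of Dusp4. The limma adjusted p of Dusp9 was 0.0734 with the replicate number as a block, at the same log2 change. With GC and length trends removed the log2 change of Dusp2 was -0.44 (limma adjusted p = 0.0954) and that of Dusp9 was -0.21 (0.302). Dusp2 lost its call when wildtype replicate 1 (0.0739) or EVX1-Δfs replicate 3 (0.0844) was left out, and Dusp9 kept its call in 1 of 6 such fits, that without wildtype replicate 3. Rasa2, a GTPase-activating protein for RAS, had a log2 change of 0.50 (limma adjusted p = 0.0539, and 0.110 with the block) and of 0.21 with GC and length trends removed (0.431). It and the phosphatases that follow were named after their values were seen. Dusp5, Dusp1 and Dusp7 were not called, with log2 changes of -0.46, 0.12 and 0.10 (limma adjusted p = 0.131, 0.640 and 0.765).

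The cascade itself was represented by 21 genes, from the adaptors to the kinases that ERK activates, and all were tested. In EVX1-Δfs EBs 3 were lower and 1 was higher, and the list's median log2 fold change was -0.04. Ksr1, a scaffold that brings RAF and MEK together, fell from 306 ± 40.9 to 178 ± 39.8 normalised counts (SD, n = 3; log2 change -0.80, limma adjusted p = 0.00894). Map2k2, which encodes a MEK kinase, and Rps6ka1, which encodes an RSK kinase downstream of ERK, were lower by smaller amounts (log2 changes -0.50 and -0.41, limma adjusted p = 0.0178 and 0.0334). The RAS gene Nras rose from 1235 ± 53.3 to 1674 ± 144 (SD, n = 3; log2 change 0.44, limma adjusted p = 0.0261). With the replicate block in limma, of these genes Ksr1 alone was called (adjusted p = 0.0250), while Map2k2, Rps6ka1 and Nras had 0.0587, 0.0685 and 0.0597. DESeq2 with the block called Ksr1, Map2k2 and Rps6ka1 lower and Nras higher. Ksr1 alone was called with GC and length trends removed, where Map2k2, Rps6ka1 and Nras had log2 changes of -0.34, -0.26 and 0.28 (limma adjusted p = 0.109, 0.200 and 0.163). No gene of the list was called once EVX1-Δfs replicate 1 was left out, Ksr1 having a limma adjusted p of 0.0592 there. Map2k2 also lost its call without EVX1-Δfs replicate 3 or wildtype replicate 3, and Nras without EVX1-Δfs replicate 3 or wildtype replicate 1. Rps6ka1 kept its call in 1 of 6 such fits, that without wildtype replicate 2.

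Upstream of the cascade, 11 of 13 FGF ligands and receptors were tested, of which Fgf3 and Fgf10 were lower and Fgf4 and Fgf5 were higher (log2 changes -1.54, -0.74, 0.60 and 0.61, limma adjusted p = 6.06e-06, 0.0149, 0.0221 and 0.0293), around a list median of -0.06. With the replicate block the limma adjusted p of Fgf4 and Fgf5 were 0.0579 and 0.0624, with trends removed Fgf5 had 0.0526, and with 1 library left out Fgf10 lost its call in 1 of 6 fits (without EVX1-Δfs replicate 1, 0.0796), Fgf4 in 3 (wildtype replicate 1, EVX1-Δfs replicates 1 and 3, up to 0.0980) and Fgf5 in 4 (replicates 1 and 2 of either genotype, up to 0.131). At an unadjusted limma p under 0.05, 4 genes of the FGF list were lower and 3 were higher. Fgf15, Fgf8 and Fgfr3, named after their values were seen, were among these but were not called. Their log2 changes were -0.63, -0.39 and 0.84 (limma adjusted p = 0.0583, 0.0891 and 0.125). Of 14 other receptor tyrosine kinases and their ligands, Kdr and Flt1, both receptors for VEGF, were called, in opposite directions. Kdr had 1987 ± 385 normalised counts in wildtype and 1048 ± 71.1 in EVX1-Δfs libraries (SD, n = 3; log2 change -0.91, limma adjusted p = 2.03e-04). Flt1 had 181 ± 22.6 and 304 ± 11.9 (SD, n = 3; log2 change 0.75, limma adjusted p = 0.00413).

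Downstream, 1 of 11 immediate early genes tested was lower, and 0 were higher in limma, at an unadjusted p under 0.05, and by DESeq2 and edgeR. This was Myc, the growth-promoting transcription factor, which fell from 907 ± 165 to 523 ± 105 normalised counts (SD, n = 3; log2 change -0.80, limma adjusted p = 0.00358). The median of these genes was 0.02. Of 8 other ETS factors, 2 were called lower in limma, and 4 were lower at an unadjusted p under 0.05. In limma, at an unadjusted p under 0.05, and by DESeq2 and edgeR, 0 were higher. The list median was -0.19. Elk3, a ternary complex factor that partners SRF, fell from 154 ± 15.5 to 97.3 ± 4.24 (SD, n = 3; log2 change -0.65, limma adjusted p = 0.0270). Erf, an ETS repressor that ERK exports from the nucleus, fell from 1724 ± 47.4 to 1329 ± 41.3 (SD, n = 3; log2 change -0.37, limma adjusted p = 0.0424). With the replicate block Elk3 and Erf had limma adjusted p of 0.0587 and 0.0777, at the same log2 changes, and with GC and length trends removed Erf had a log2 change of -0.20 (0.308). With 1 library left out, Elk3 lost its call in 3 of 6 fits (those lacking EVX1-Δfs replicate 1, EVX1-Δfs replicate 3 or wildtype replicate 2, up to 0.102), and Erf in all 6 (0.0568 to 0.150).

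**Figure D5:**
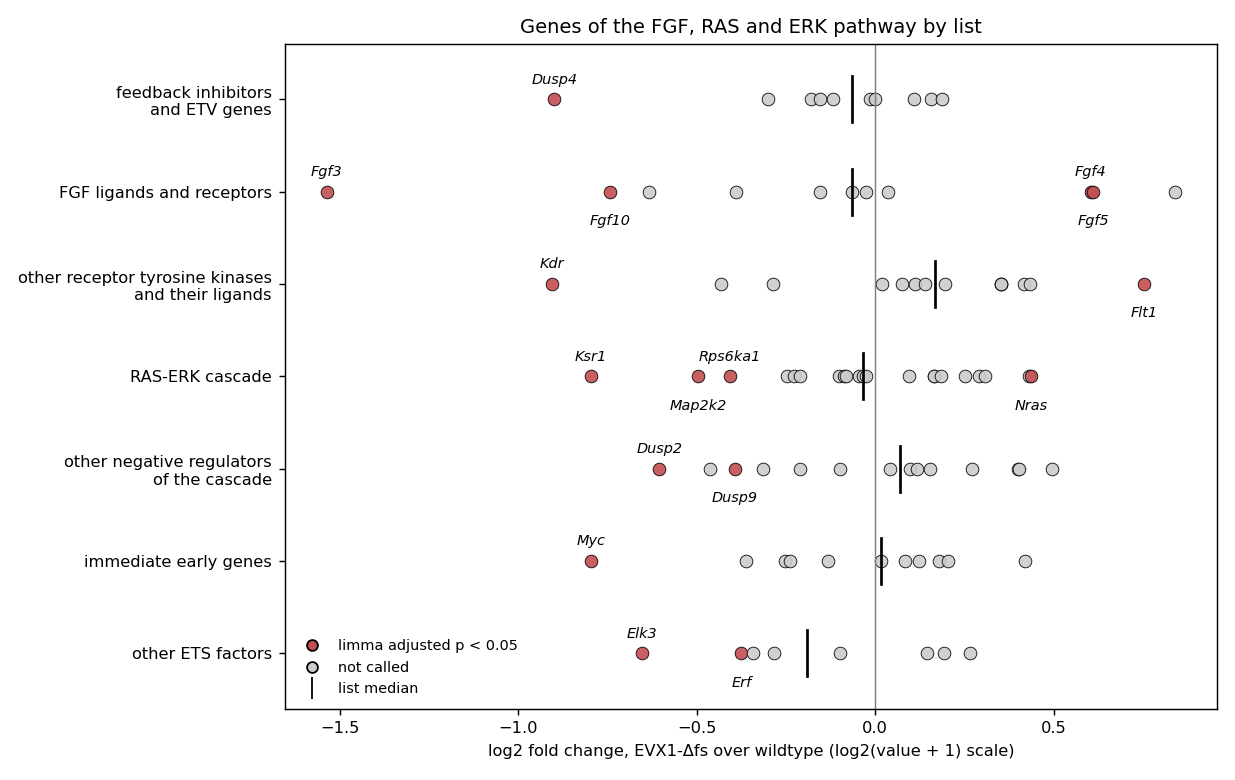
Log2 fold change of EVX1-Δfs over wildtype (horizontal axis, log2(value + 1) scale) for each tested gene, by list. Red points have a limma adjusted p under 0.05 and are named, grey points were not called, and vertical bars are list medians, which range from -0.19 for the other ETS factors to 0.17 for the other receptor tyrosine kinases.

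The profile of the 10 genes over the 6 libraries, taken as the mean of their log2 values after each was centred on its own mean, was 0.00, 0.06 and 0.12 in wildtype and -0.14, 0.07 and -0.11 in EVX1-Δfs replicates 1, 2 and 3. It did not separate the genotypes, because EVX1-Δfs replicate 2 lay between wildtype replicates 2 and 3. Among 10620 other genes with a mean normalised count of at least 50, those most like this profile over 6 libraries were Osbpl7, Sap130 and Kctd20 (Pearson's r of 0.994, 0.991 and 0.990, a description). None of these 3 genes was called (limma adjusted p of 0.539, 0.267 and 0.499).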

How the data were processed

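RNA-seq was measured in 3 wildtype and 3 EVX1-Δfs day 4 EB libraries, grouped by their labels. Per the study's methods and the labels, the authors selected mRNA, sequenced it on an Ion Proton, mapped reads to mm9 with TopHat2 and TMAP, counted them with HTSeq and used DESeq2, both at standard settings. Versions and the annotation are not given in the sources used here. The values deposited are a normalised signal, each library's gene reads scaled by its own size factor. Whole reads were recovered for 100% of values (within 0.001 of a whole number) and numbered 7597879 to 9914471 per library. Depth limits the precision of low genes, and these are reads assigned to genes.

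From these values limma (3.58.1, trend) was fitted to log2(value + 1) for genes with at least 10 normalised counts in at least 3 libraries, which understates the change of low genes. DESeq2 (1.42.0) and edgeR (4.0.16) on recovered reads, pseudocounts of 4 and 16, other scalings, no filter, removal of GC and length trends (natural splines, 5 degrees of freedom), the replicate block and leaving out each library were alternatives. On the recovered reads DESeq2 called 517 genes lower and 284 higher, and edgeR 378 and 309. Exact permutation tests used scipy (1.17.1).

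The submitters' design text sets each replicate up side by side on a separate day, so same-numbered libraries were taken as pairs. The sample titles give the replicate number and not the day. Deviations from the group means of same-numbered libraries correlated at 0.111, 0.00933 and -0.101 across 13136 genes. Exon length, GC content and positions came from GENCODE vM1 on NCBIM37, to which 94.1% of symbols matched, and Hras was read as Hras1. Promoter windows came from RefSeq (GRCm38.p6) and were matched by symbol. Dusp4 and Etv4 had no window there, and Spry4 was left out by the selection of windows.

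The 10 genes, the pathway lists and the marker lists were chosen with earlier results of these data known. All 10 genes are named. Of each pathway list, the genes called are named, or the 4 with the lowest p where more were called. One gene of the cascade list is not reported here. The 3 genes most like the mean profile are also named. Other genes were named after their values were seen, as stated there. Nothing in the labels says whether the libraries share a culture of mESCs beyond the separate days.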

Additional observations from a re-analysis of the deposited data

How the results depend on the processing

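Of 170 values for the 10 genes under 17 alternative settings, 154 stayed on the same side of 0 and of the threshold and 16 changed sign, all of them in genes that were not called. The block changed no call among the 10 genes. Dusp4 was the 1 gene called lower and 0 were called higher in every one of the 17 settings. With GC and length trends removed, with and without the replicate block, Spry1 had a log2 fold change of 0.0104 and Spred1 of -0.148. For Spry2 it was 0.0147 with upper-quartile scaling. For Il17rd it was 0.0149 with DESeq2, 0.0258 with edgeR, 0.00341 with TMM scaling, 0.0280 with upper-quartile scaling and 2.57e-04 with DESeq2 and the block. When libraries were left out 1 at a time, the log2 fold change ranged from -0.0721 to 0.0531 for Spry2, from -0.0461 to 0.329 for Spry4 and from -0.152 to 0.10 for Il17rd. For these genes the cause was not tested.

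Counts over all genes and the pathway lists depended more on the setting. With the replicate block, limma called 146 genes lower and 76 higher, and DESeq2 called 207 and 77. With GC and length trends removed limma called 149 and 108, and with the block as well 90 and 49. Leaving out 1 library gave 138 (without EVX1-Δfs replicate 1) to 355 genes lower and 77 (without EVX1-Δfs replicate 3) to 332 higher. The count lower was also reduced without EVX1-Δfs replicate 3 (142), wildtype replicate 1 (232) and wildtype replicate 3 (240), and the count higher without EVX1-Δfs replicate 1 (89) and wildtype replicate 3 (133). FGF ligands and receptors called higher numbered 0 with the limma block, 1 with the DESeq2 block and 1 with trends removed (block or no block). In the cascade, the limma block and trend removal (block or no block) each left 1 gene lower and 0 higher. The other inhibitors had 1 gene lower with all genes with any read, upper-quartile scaling, the limma block and the DESeq2 block, and 0 after trend removal (block or no block). They had 1 gene higher with DESeq2, edgeR and upper-quartile scaling. The other ETS factors had 1 gene lower with all genes with any read, upper-quartile scaling and the trends removed, and 0 with the limma block, the DESeq2 block and the trends removed with the block.

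Leaving out 1 library at a time, the counts ranged from 1 to 3 lower and 0 to 2 higher for FGF ligands and receptors, from 1 to 2 higher for the other receptor tyrosine kinases, from 0 to 3 lower and 0 to 1 higher for the cascade, from 0 to 2 lower and 0 to 1 higher for the other inhibitors, and from 0 to 1 lower for the other ETS factors. These fits have fewer samples. For the other settings the cause was not tested.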
